A study of Mus musculus with 6 samples.

Results

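The genes described here encode the constitutive proteasome, and were chosen by symbol: Psma, Psmb, Psmc or Psmd followed by digits, without the immunosubunit genes Psmb8, Psmb9 and Psmb10. Of 22180 genes measured, 35 met this rule through a probe set annotated to that symbol alone. They comprised 7 genes of the alpha ring, 8 of the beta ring, 6 ATPases and 14 non-ATPase genes. Psma4 was represented only on probe sets that carry a further symbol and was kept apart. The RNA came from macrophages grown for 7 days with M-CSF from bone marrow of 3 C57BL/KaLwRij mice. All shared an overnight coculture with the mouse myeloma line 5TGM1-luc, which carries luciferase. One group of 3 arrays came from cultures given 0.5 nM of an antibody against mouse CSF1R, the receptor for M-CSF and IL-34, for 3 days. The other 3 came from cultures given an IgG control for the same time, and both groups carried the coculture and 4 washes against the myeloma cells.

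The proteasome is the barrel-shaped protease that degrades proteins tagged with ubiquitin. Its core particle is a stack of rings, in which alpha subunits gate the entrance and 3 kinds of beta subunit cut the chain. The regulatory particle sits on the core, where ATPase subunits unfold the substrate and non-ATPase subunits bind ubiquitin chains and remove them. In cells exposed to interferon, 3 immunosubunits can take the place of the standard catalytic ones, which changes the peptides made for MHC class I. Plasma cells and myeloma cells secrete much antibody and depend heavily on the proteasome, which is why its inhibitors are used against myeloma.

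Of the 35 genes, 28 had at least 1 promoter in the RefSeq table (GRCm38.p6; 250 bases before to 50 after the annotated start). Promoters are shown for Psmb4 and Psmd11, whose falls were exceeded by Psmd3 alone, for a regulatory particle gene with CCAAT boxes, Psmd14, and for the catalytic subunit genes Psmb5 and Psmb6. Capitals mark TGACNNNGC, the core of the antioxidant response element bound by NRF1 and NRF2, or CCAAT, bound by NF-Y, on either strand.
Psmb4 (chr3:94886909-94887208, minus strand): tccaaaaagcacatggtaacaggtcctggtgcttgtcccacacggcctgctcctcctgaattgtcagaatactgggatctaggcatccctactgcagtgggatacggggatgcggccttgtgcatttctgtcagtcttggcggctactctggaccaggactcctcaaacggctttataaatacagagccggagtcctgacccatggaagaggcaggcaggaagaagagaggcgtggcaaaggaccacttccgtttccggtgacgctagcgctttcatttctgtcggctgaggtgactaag
Psmd11 (chr11:80428365-80428664, plus strand): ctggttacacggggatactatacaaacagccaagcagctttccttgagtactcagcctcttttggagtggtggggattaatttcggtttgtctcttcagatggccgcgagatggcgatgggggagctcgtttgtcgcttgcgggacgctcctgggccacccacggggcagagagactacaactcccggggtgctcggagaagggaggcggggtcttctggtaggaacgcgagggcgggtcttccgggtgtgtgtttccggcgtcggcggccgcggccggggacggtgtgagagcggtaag
Psmd14 (chr2:61711444-61711743, plus strand): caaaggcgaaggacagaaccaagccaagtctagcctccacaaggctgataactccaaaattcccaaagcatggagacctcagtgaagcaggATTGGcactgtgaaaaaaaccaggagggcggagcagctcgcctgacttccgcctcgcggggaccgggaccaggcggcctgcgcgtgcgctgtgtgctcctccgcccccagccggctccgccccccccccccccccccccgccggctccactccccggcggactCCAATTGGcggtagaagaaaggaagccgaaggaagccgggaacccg
Psmb5 (chr14:54617946-54618245, minus strand): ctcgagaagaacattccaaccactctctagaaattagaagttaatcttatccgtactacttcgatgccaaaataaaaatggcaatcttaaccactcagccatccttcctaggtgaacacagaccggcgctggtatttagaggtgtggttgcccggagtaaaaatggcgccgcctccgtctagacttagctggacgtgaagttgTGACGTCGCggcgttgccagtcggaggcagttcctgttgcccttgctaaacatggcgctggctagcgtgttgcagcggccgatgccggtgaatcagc
Psmb6 (chr11:70525107-70525406, plus strand): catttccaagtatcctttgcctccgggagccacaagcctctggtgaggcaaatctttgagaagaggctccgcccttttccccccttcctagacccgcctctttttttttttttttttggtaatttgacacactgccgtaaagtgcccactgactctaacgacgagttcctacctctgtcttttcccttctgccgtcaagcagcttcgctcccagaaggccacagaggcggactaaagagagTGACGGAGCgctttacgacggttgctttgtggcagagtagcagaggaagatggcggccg
The response element core lay in 5 of the 28 genes, or 17.9%, against 14.9% of 16990 measured genes with a promoter in the table. The core was found in 1 of the 16 genes called lower and 4 of the 12 that did not pass, a difference not tested. It began 47 bases before the start of Psmb5, as TGACGTCGC, and 9 bases before that of Psmb6, as TGACGGAGC. CCAAT lay in 12 of the 28 genes, or 42.9%, against 41.6% of measured genes. Over the 28 genes the shares of both motifs were near those of other genes. A match of letters is a description of the window, not a bound site. No match was present in the windows of Psmb4 and Psmd11.

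Proteasome genes were lower with the CSF1R antibody. Of the 35, 21 fell (60.0%), 0 rose and 14 did not pass limma's test at an adjusted p of 0.05. Among all 22180 genes 16.0% were lower and 12.5% higher. At an unadjusted p under 0.05, 25 members were lower and 0 higher, where 4659 of the 22180 genes were lower and 3413 higher. The log2 difference was below 0 for 34 of the 35, with a median of -0.23, or 14.7% less signal, against a median of -0.02 over all genes. No member changed by 1.5-fold, and 20532 of the 22180 genes also stayed under that limit. All 3 antibody values lay below all 3 IgG values for 26 members (74.3%), and the reverse held for 0. Over all genes these shares were 22.7% and 16.6%.

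Calls were more frequent among brightly measured genes. Of the 5802 genes with a group mean above 8 on the log2 scale (this limit was picked with the values in view), 37.2% were lower, and of the 30 members above it 21 were lower (70.0%). The median change was -0.25 for those 30 and -0.09 for the 5802. All antibody values lay below all IgG values for 86.7% of the 30 and 47.4% of the 5802. At an unadjusted p under 0.05, 25 of the 30 and 2557 of the 5802 were lower. With the test run on the 11090 genes above the median signal alone, 25 members were lower, where 36.4% of the genes tested were. Scaling the arrays with cyclic loess reduced the count of lower members to 11, or 31.4%, with 0 higher, where 10.6% of all genes and 23.9% of the bright ones were lower. With that scaling the median of the members was -0.12 and that of all genes 0.01, and of all genes called in either direction 59.2% were higher, against 43.8% as deposited. The 11 were Psma3, Psmb4, Psmb7, Psmc1, Psmc2, Psmc5, Psmd3, Psmd5, Psmd7, Psmd11 and Psmd14, and they also passed in every other one of the 14 settings of the fit.

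**Figure D1:**
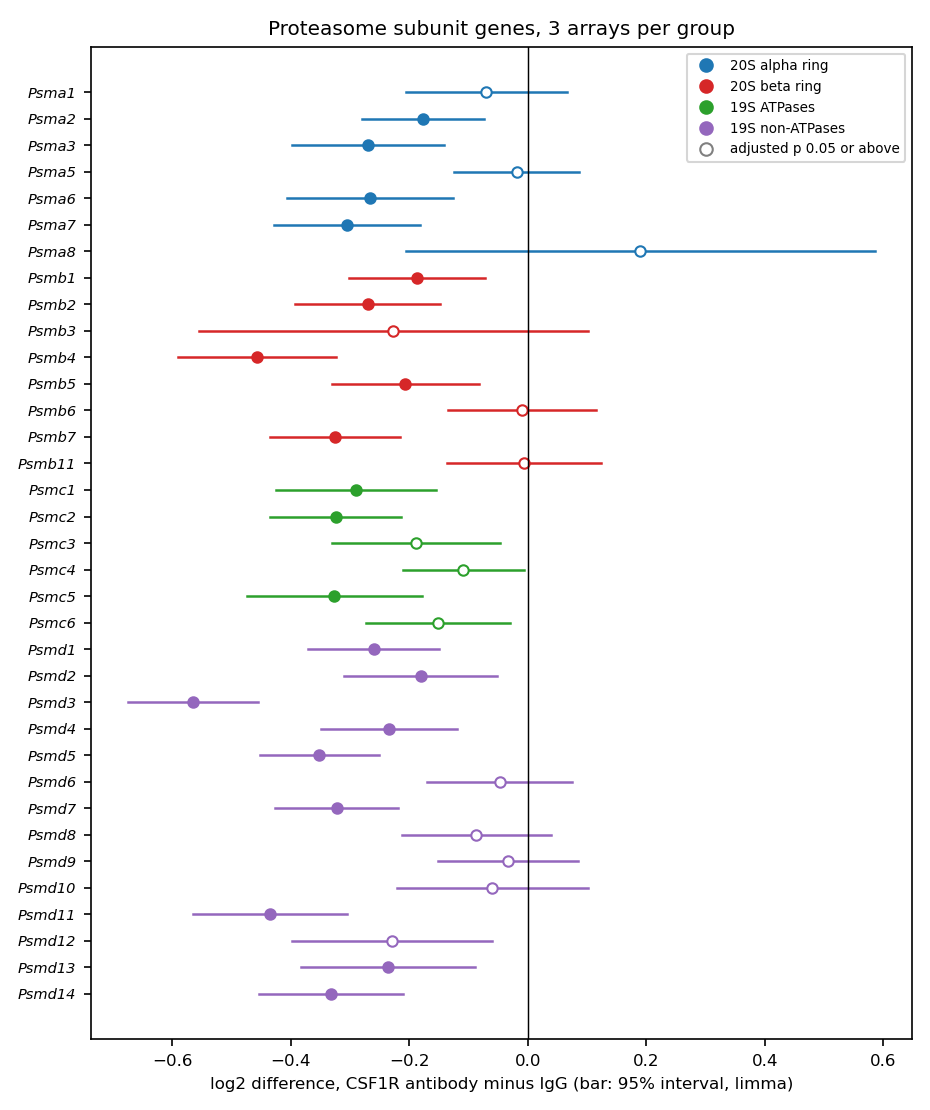
Log2 difference between CSF1R antibody and IgG arrays for each of the 35 proteasome genes, with limma's 95% interval and the subcomplex as colour (3 arrays per group). Filled points passed the test; the 21 filled points all lie left of 0, from -0.18 for Psma2 to -0.57 for Psmd3.

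Markers of cell populations and of proliferation also moved on these arrays. Over all genes 16.0% were lower and 12.5% higher, and over those with a group mean above 8, 37.2% and 26.3%. All 13 macrophage markers exceeded background, as did 12 of 13 plasma and myeloma cell markers. Of the macrophage markers 13 were higher, and their summed linear signal was 39690 to 41430 on antibody arrays and 21480 to 22210 on IgG arrays. Of 13 plasma and myeloma cell markers, 9 were lower and 0 higher (median -0.33), with sums of 17230 to 18820 and 21890 to 22480. All 9 cell cycle markers were lower, with a median of -0.61. Of 9 stromal markers, 5 were lower and 1 higher (sums of 1006 to 1068 and 1918 to 1972). The brightest of the 9, Acta2, weighs most in these sums, with mean log2 values of 9.11 with antibody and 10.31 with IgG. Neutrophil markers (7) and T cell markers (4) had 0 called in either direction by limma (at an unadjusted p also 0), and 1 of these 11 exceeded the level of olfactory and vomeronasal receptor genes, used as a guide to background. Csf1r rose by 1.12, which does not check the labels since the antibody binds the protein. The part of these shifts in the proteasome result was not tested, and in RNA from mixed cultures fewer cells of a type and less RNA per cell cannot be told apart.

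In the alpha ring, whose subunits form the gate of the core particle, 4 of 7 genes fell and 0 rose (0 rose at an unadjusted p under 0.05 too), with a median of -0.18. Of all genes 16.0% were lower, and of those with a group mean above 8, 37.2%. Psma7 changed most. Its log2 values were 10.45, 10.56 and 10.44 on the antibody arrays and 10.77, 10.78 and 10.82 on the IgG arrays. Every antibody value was thus below every IgG value, for a fall of 0.31 (SE 0.05; limma adjusted p = 0.0048), and with cyclic loess the adjusted p was 0.056. Psma3 fell by 0.27 (SE 0.05; limma adjusted p = 0.0096) and Psma6 by 0.27 (SE 0.06; limma adjusted p = 0.014). With cyclic loess the limma adjusted p of Psma3 was 0.05 when rounded, just inside the threshold. The call on Psma6 was lost without antibody replicate 1 (limma adjusted p = 0.053), without IgG replicate 1 (0.051) and with cyclic loess (0.12). Psma2 fell by 0.18 (SE 0.04; limma adjusted p = 0.022), a call lost without antibody replicate 1 (adjusted p = 0.062) or 2 (0.067), without IgG replicate 1 (0.053) or 3 (0.055), and with cyclic loess (0.43).

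The other alpha genes did not pass. Psma1 stood at 9.54 ± 0.08 (SD, n = 3) with antibody and 9.61 ± 0.02 with IgG (limma adjusted p = 0.44). Psma5 gave 4.38, 4.37 and 4.37 with antibody and 4.43, 4.37 and 4.37 with IgG. These overlapping values are under the background guide of 4.92, so no level of this gene could be read, and a further Psma5 probe set was as dim (4.24 ± 0.05 and 4.32 ± 0.33; SD, n = 3). Psma8, which takes the place of Psma7 in germ cells, gave 4.70, 5.19 and 5.19 with antibody and 4.70, 4.74 and 5.07 with IgG. Its groups overlapped, near background, and it was the single member with a difference above 0 (0.19, SE 0.16; limma adjusted p = 0.47). Psma4 was read by 2 probe sets that it shares with AY074887, neither of them tested. On the brighter the values were 10.46, 10.47 and 10.67 with antibody and 10.76, 10.72 and 10.76 with IgG, a difference of -0.22. The other lay near background, at 4.95 ± 0.14 (SD, n = 3) and 4.88 ± 0.24, a difference of 0.07.

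In the beta ring 5 of 8 genes fell and 0 rose (0 rose at an unadjusted p under 0.05 too), with a median of -0.22. The shares lower were 16.0% of all genes and 37.2% of those with a group mean above 8. Psmb4, a structural subunit, changed most, with 8.49, 8.47 and 8.60 on antibody arrays and 9.02, 8.98 and 8.93 on IgG arrays. The groups were separated by several times the spread within them, and the fall was 0.46 (SE 0.06; 27.2% less signal; limma adjusted p = 0.0012). Psmb2, another structural subunit, fell by 0.27 (SE 0.05; limma adjusted p = 0.0078), and by 0.15 with cyclic loess (adjusted p = 0.053). Psmb1, also structural, fell by 0.19 (SE 0.05; limma adjusted p = 0.028). That call was lost without antibody replicate 1 (adjusted p = 0.082) or 2 (0.086), without IgG replicate 1 (0.063) or 2 (0.073), and with cyclic loess (0.35). Psmb3 was dim, at 5.61 ± 0.25 (SD, n = 3) and 5.84 ± 0.14, and its groups overlapped. Psmb11, the thymus-specific catalytic subunit, gave 4.26, 4.30 and 4.31 against 4.34, 4.21 and 4.34, overlapping and under the background guide.

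**Figure D2:**
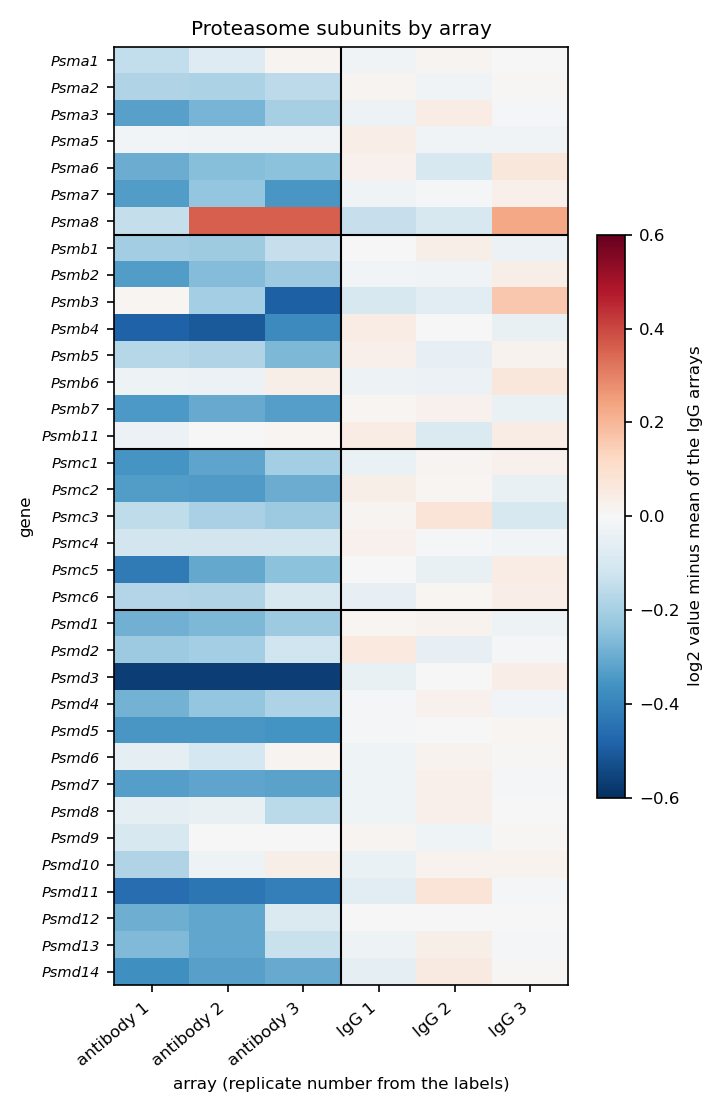
Log2 value of each proteasome gene on each of the 6 arrays, minus that gene's mean over the 3 IgG arrays, with blue for lower and red for higher. The antibody columns are blue for most genes in all 4 subcomplexes, most deeply for Psmd3, Psmb4 and Psmd11, and palest in antibody replicate 3.

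Of the 3 standard catalytic subunit genes, Psmb7 and Psmb5 fell and Psmb6 did not pass. Psmb7, which carries the trypsin-like activity, gave 10.24, 10.28 and 10.25 with antibody and 10.60, 10.61 and 10.54 with IgG. It was lower on every antibody array and fell by 0.33 (SE 0.05; limma adjusted p = 0.0022). Psmb5, which carries the chymotrypsin-like activity and is the main target of proteasome inhibitors, gave 8.42, 8.41 and 8.32 against 8.62, 8.54 and 8.61. It fell by 0.21 (SE 0.05; limma adjusted p = 0.025), but the call was lost without antibody replicate 2 (adjusted p = 0.056) or 3 (0.055), without IgG replicate 1 (0.073) or 3 (0.074), and with cyclic loess (0.32). Psmb6, which carries the caspase-like activity, gave 10.13, 10.12 and 10.19 with antibody and 10.12, 10.12 and 10.22 with IgG. Its groups overlapped, with a difference of -0.01 and a 95% interval from -0.14 to 0.11, and with cyclic loess the difference was 0.11 (adjusted p = 0.19). Whether the changes of these 3 genes differ from each other was not tested, and the interval of Psmb5 (-0.33 to -0.08) overlaps those of both others.

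Each standard catalytic gene was set against the immunosubunit gene that can replace it. Psmb10, the replacement for Psmb7, gave 10.09, 10.23 and 10.06 with antibody and 9.48, 9.55 and 9.60 with IgG. It was higher on every antibody array and rose by 0.58 (SE 0.06; limma adjusted p = 0.00081). The log2 difference Psmb10 minus Psmb7 was therefore higher by 0.91 with the antibody, from -1.04 ± 0.09 (SD, n = 3) to -0.13 ± 0.07, and the groups did not overlap (exact permutation test, two-sided p = 0.10; adjusted over 3 pairs 0.15). With 3 arrays against 3 that test cannot give less than 0.10. Psmb8, the replacement for Psmb5, was at 10.55 ± 0.03 and 10.63 ± 0.04 and did not pass (limma adjusted p = 0.25), and the difference Psmb8 minus Psmb5 was higher by 0.12 (exact permutation p = 0.10; adjusted 0.15). Psmb9, the replacement for Psmb6, was at 9.09 ± 0.09 and 9.10 ± 0.09 (limma adjusted p = 0.89). The difference Psmb9 minus Psmb6 changed by -0.01, with overlapping groups (exact permutation p = 1.0). In all, 1 of the 3 immunosubunit genes rose, and 2 of the 3 standard ones fell. Among genes with a group mean above 8, 26.3% were higher and 37.2% lower.

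**Figure D3:**
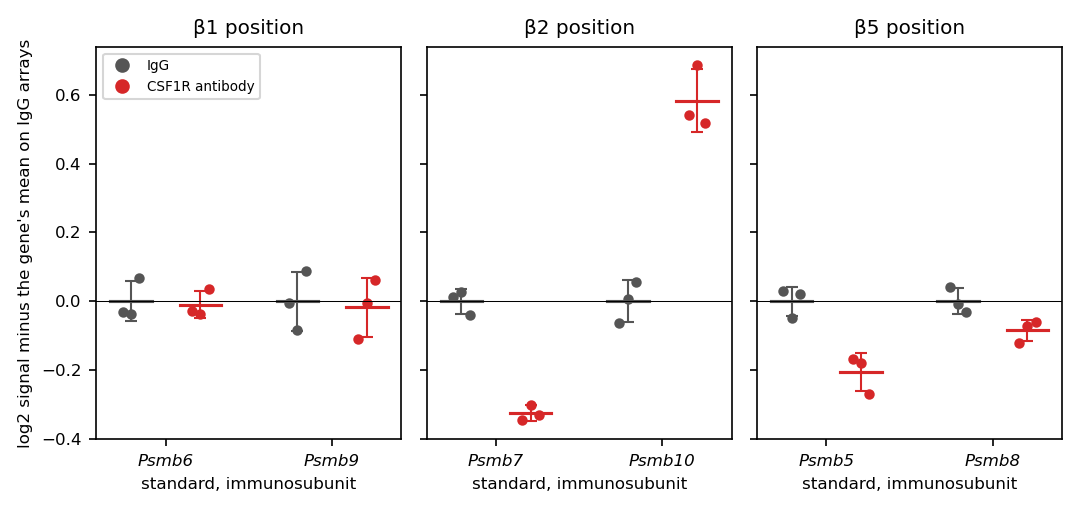
Log2 signal on each array minus the gene's mean on IgG arrays, for the standard catalytic gene and its immunosubunit at each of the 3 catalytic positions of the beta ring; points are arrays, the horizontal bar is the mean and the error bar the SD (n = 3). Psmb7 falls by 0.33 while Psmb10 rises by 0.58; Psmb6 and Psmb9 overlap between groups.

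The ATPase genes encode the ring of the regulatory particle that unfolds substrates. All 3 antibody values lay below all 3 IgG values for each of the 6, yet 3 passed the test and 3 did not, with a median of -0.24. Such separation held for 22.7% of all genes and 47.4% of those with a group mean above 8. Of the latter, 37.2% passed as lower. Psmc5 gave 8.18, 8.30 and 8.36 on antibody arrays and 8.60, 8.56 and 8.65 on IgG arrays. The 2 groups stayed apart, and the fall was 0.33 (SE 0.06; limma adjusted p = 0.0078). Psmc2 fell by 0.32 (SE 0.05; limma adjusted p = 0.0023), and a further, dimmer Psmc2 probe set differed by -0.44, which was not tested. Psmc1 fell by 0.29 (SE 0.06; limma adjusted p = 0.0087).

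Psmc3, Psmc4 and Psmc6 missed the threshold. Psmc3 differed by -0.19 (limma adjusted p = 0.058) and passed without IgG replicate 3 (-0.24; adjusted p = 0.029). Psmc6 differed by -0.15 (adjusted p = 0.072). Psmc4 was at 10.61 on all 3 antibody arrays, an exact tie, and at 10.74, 10.70 and 10.70 on IgG arrays (limma adjusted p = 0.11). Exact ties on the 3 antibody arrays were found in 540 of all genes and in 1 member, so its spread there is not a measure of error. Ties on 2 or more antibody arrays were found in 3946 of all genes and in 5 members, among them Psmd3 and Psmd5. With cyclic loess the Psmc4 difference was 0.01, above 0. Psmc3, Psmc4 and Psmc6 passed with an intensity trend in the fit (limma adjusted p = 0.024, 0.017 and 0.018) and among genes above the median signal (0.018, 0.036 and 0.022). Psmc3 and Psmc6 also passed among genes above the 25th percentile of signal (0.036 and 0.044).

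The non-ATPase genes of the regulatory particle fell in 9 of 14 cases and rose in 0 (0 rose at an unadjusted p under 0.05 too), with a median of -0.24. Lower calls were made for 16.0% of all genes and 37.2% of those with a group mean above 8. Psmd3, a scaffold subunit of the lid, had the largest change of all 35. It gave 8.74 on each antibody array and 9.26, 9.31 and 9.35 on the IgG arrays. Antibody replicates 1 and 3 were an exact tie, so the small spread there is a poor measure of error. Every antibody value was far under every IgG value. The fall was 0.57 (SE 0.05; 32.4% less signal; limma adjusted p = 0.0002), and it was 0.45 with cyclic loess. Psmd11, another lid subunit, known to limit how much assembled proteasome a cell makes, gave 10.08, 10.10 and 10.12 with antibody and 10.47, 10.61 and 10.52 with IgG. No values overlapped, and it fell by 0.43 (SE 0.05; 26.0% less signal; limma adjusted p = 0.0013).

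Psmd14, the lid deubiquitinase that removes ubiquitin chains from substrates, gave 8.29, 8.33 and 8.35 with antibody and 8.60, 8.71 and 8.66 with IgG. The groups were apart, and the fall was 0.33 (SE 0.05; limma adjusted p = 0.0031). Psmd7, the partner with which Psmd14 forms a dimer, fell by 0.32 (SE 0.04; limma adjusted p = 0.0018). Psmd4, a ubiquitin receptor, fell by 0.23 (SE 0.05; limma adjusted p = 0.011), with an adjusted p of 0.11 after cyclic loess. Psmd1, a large scaffold of the base, fell by 0.26 (SE 0.05; limma adjusted p = 0.0059), with 0.058 after cyclic loess. A dimmer probe set that Psmd1 shares with Armc9 stood at 6.34 with antibody and 6.38 with IgG. Its difference of -0.04 was not tested. Psmd2, the other large scaffold of the base, fell by 0.18 (SE 0.05; limma adjusted p = 0.048). Without antibody replicate 1 or 2 its adjusted p was 0.13, and without IgG replicate 1, 2 or 3 it was 0.12, 0.060 and 0.099. With cyclic loess it was 0.46. Psmd13, a lid subunit, fell by 0.24 (SE 0.06; limma adjusted p = 0.028). Its call was lost without antibody replicate 1 (adjusted p = 0.088) or 2 (0.087), without IgG replicate 1 (0.061), 2 (0.087) or 3 (0.075), and with cyclic loess (0.17).

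Psmd12, also of the lid, had 10.18 and 10.17 on antibody arrays 1 and 2 but 10.39 on array 3, against 10.48, 10.47 and 10.48 with IgG. It missed the threshold (-0.23; limma adjusted p = 0.053) and passed without antibody replicate 3 (-0.30; adjusted p = 0.0063). It also passed with an intensity trend (adjusted p = 0.019) and among genes above the 25th percentile (0.034) or the median (0.017) of signal. Psmd8 (-0.09; adjusted p = 0.30) and Psmd6 (-0.05; adjusted p = 0.57) did not pass either, and both differences were above 0 with cyclic loess (0.03 and 0.06).

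Of the 14 non-ATPase genes, 3 encode chaperones that help the base assemble and are not part of the finished particle. Psmd5 gave 9.73, 9.73 and 9.72 with antibody and 10.06, 10.08 and 10.09 with IgG. It was lower on every antibody array, by 0.35 (SE 0.04; 21.6% less signal; limma adjusted p = 0.0011). The other two overlapped between groups. Psmd9 gave 7.02, 7.12 and 7.12 against 7.14, 7.09 and 7.13 (limma adjusted p = 0.69). Psmd10, known as gankyrin, was at 8.54 ± 0.11 (SD, n = 3) and 8.60 ± 0.03 (limma adjusted p = 0.59).

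Antibody replicate 3 stood nearest to the IgG arrays in these genes. It had the highest value of the 3 antibody arrays in 23 of the 35 members (65.7%) but in 35.5% of all genes. The median deviation of the members from their 6-array means was -0.16, -0.12 and -0.07 on antibody replicates 1, 2 and 3, and 0.11 to 0.12 on the IgG arrays. Without antibody replicate 3 the count of lower members was 21, as with it, and the median was -0.26. Leaving out other arrays gave 15 to 18 lower members.

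**Figure D4:**
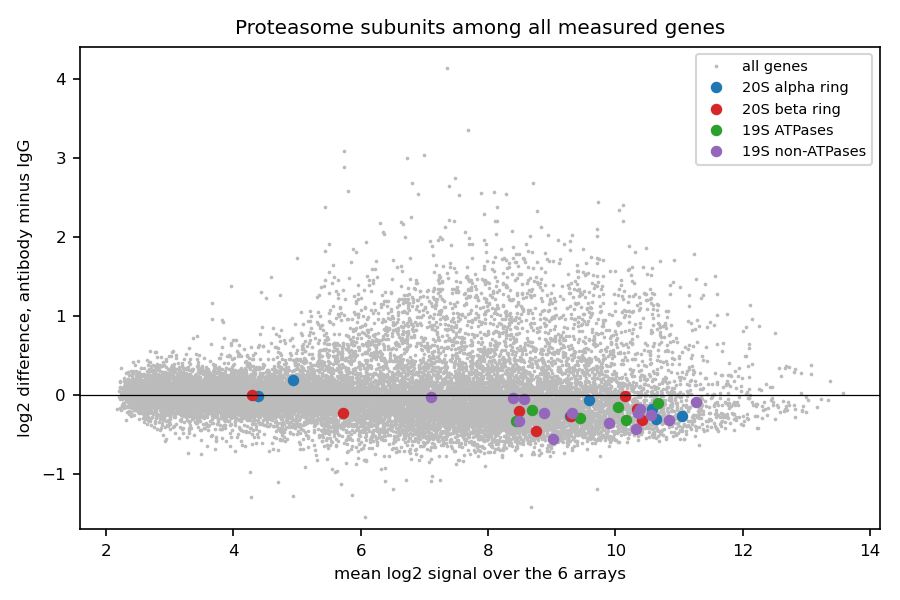
Mean log2 signal over the 6 arrays against the log2 difference, antibody minus IgG, for 22180 genes (grey) and the 35 proteasome genes (coloured by subcomplex). The proteasome genes lie from -0.57 to 0.19, and rises of other genes reach 4.14. Of the 22180 genes 20532 changed by less than 1.5-fold, as did all 35 proteasome genes. A group mean above 8 was found for 30 of the 35.

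Genes that work with the proteasome were read from lists of 38 genes, of which 29 had a probe set of their own. Of these 14 fell (48.3%, against 16.0% of all genes) and 4 rose (12.5% of all genes rose), with a median of -0.19. Among genes with a group mean above 8, 37.2% were lower and 26.3% higher. With cyclic loess 6 fell (Psme3, Psmg1, Psmg2, Usp14, Ecpas and Ubqln4) and 4 rose. With that scaling 10.6% of all genes and 23.9% of the bright ones were lower, and 15.4% of all genes were higher. Of 5 measured genes for proteins that bind or act at the regulatory particle, 4 fell and 0 rose (0 at an unadjusted p too). Of these, Usp14 and Uchl5 are the deubiquitinases. Usp14, a deubiquitinase that trims chains at the proteasome, fell by 0.36 (SE 0.07; limma adjusted p = 0.011), and Uchl5, another, by 0.26 (SE 0.05; limma adjusted p = 0.012). Ecpas, whose product tethers core and regulatory particles, fell by 0.44 (SE 0.05; limma adjusted p = 0.0011). The ubiquitin ligase gene Ube3c fell by 0.24 (SE 0.06; limma adjusted p = 0.023), a call lost without antibody replicate 1 (adjusted p = 0.073) or 2 (0.059) and without IgG replicate 1 (0.072) or 3 (0.074). Sem1, a small lid subunit, was at 10.52 ± 0.04 (SD, n = 3) and 10.47 ± 0.02 and did not pass.

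Assembly factors of the core particle went both ways. Psmg1 and Psmg2, whose products pair to build the alpha ring, fell by 0.38 (SE 0.06; limma adjusted p = 0.0040) and 0.54 (SE 0.07; limma adjusted p = 0.0015). With the mean of its probe sets in place of the brightest, Psmg2 fell by 0.33 (adjusted p = 0.0043). Pomp, the chaperone that completes both standard and immunoproteasome cores, gave 9.61, 9.64 and 9.90 with antibody and 9.24, 9.40 and 9.38 with IgG. It was higher on every antibody array, by 0.38 (SE 0.09; limma adjusted p = 0.023). That call was lost without IgG replicate 1 (adjusted p = 0.082), 2 (0.054) or 3 (0.060). Psmg3 and Psmg4 differed by -0.11 and -0.08 and did not pass (adjusted p = 0.25 and 0.30).

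Of 5 genes for alternative caps or inhibitors of the core, 2 fell and 0 rose (0 at an unadjusted p too). Among all genes 16.0% were lower and 12.5% higher, and among those with a group mean above 8, 37.2% and 26.3%. A fall in 2 of 5 genes is thus close to the share lower among the bright genes. Psme3, the nuclear activator, fell by 0.33 (SE 0.04; limma adjusted p = 0.0016). Psme4, another nuclear activator, fell by 0.25 (SE 0.07; limma adjusted p = 0.035), and lost its call without antibody replicate 1 (0.10) or 2 (0.10) and without IgG replicate 1 (0.098) or 2 (0.11). With cyclic loess its limma adjusted p was 0.18. Psme1 and Psme2, the pair of interferon-induced activators, stood at 0.09 and 0.12 and did not pass (limma adjusted p = 0.29 and 0.42). Psme2 passed without antibody replicate 3 (0.23; adjusted p = 0.045), and Psmf1, an inhibitor of the core, differed by -0.09 (adjusted p = 0.55).

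Of the genes that control proteasome transcription, Nfe2l1, which encodes NRF1, the activator of proteasome genes when the proteasome is impaired, gave 9.09, 9.05 and 9.09 with antibody and 9.24, 9.22 and 9.12 with IgG. It differed by -0.12 (SE 0.05; limma adjusted p = 0.16), and by 0.00 with cyclic loess. Nfe2l2, which encodes the oxidative stress factor NRF2, gave 10.89, 10.88 and 11.07 against 10.15, 10.17 and 10.18. It was far higher on each antibody array, with a rise of 0.78 (SE 0.06; 1.72-fold; limma adjusted p = 0.00024). Ngly1, the enzyme that removes sugars from NRF1 so that it becomes active, rose by 0.41 (SE 0.08; limma adjusted p = 0.0078).

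Of 8 genes that charge ubiquitin or bring substrates to the proteasome, 6 fell and 0 rose (0 at an unadjusted p too). For comparison, 16.0% of all genes and 37.2% of those with a group mean above 8 were lower. Vcp, the ATPase that extracts ubiquitin-tagged proteins from membranes and complexes, fell by 0.26 (SE 0.05; limma adjusted p = 0.0060; 0.14 with the mean of its probe sets), and Ufd1, its cofactor, by 0.20 (SE 0.05; limma adjusted p = 0.031). The shuttle genes Rad23b and Ubqln4 fell by 0.34 (SE 0.06; limma adjusted p = 0.0044) and 0.45 (SE 0.08; limma adjusted p = 0.0051). Uba6, an enzyme that activates ubiquitin, fell by 0.28 (SE 0.06; limma adjusted p = 0.0095), and the shuttle gene Ubqln1 by 0.20 (SE 0.05; limma adjusted p = 0.022). Ubqln1 lost its call without any of antibody replicates 1 (0.059), 2 (0.058) and 3 (0.052) and IgG replicates 1 (0.058) and 3 (0.062). Ufd1 lost it without antibody replicates 1 (0.086), 2 (0.089) and 3 (0.056) and IgG replicates 1 (0.085) and 2 (0.084). With cyclic loess Ubqln4 alone of the 6 kept its call (limma adjusted p = 0.028). The adjusted p was then 0.054 for Uba6, 0.059 for Rad23b, 0.062 for Vcp, 0.34 for Ufd1 and 0.36 for Ubqln1. Nploc4, which pairs with Ufd1, and the shuttle gene Ubqln2 differed by -0.14 and -0.19 and did not pass (adjusted p = 0.10 and 0.089).

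**Figure D5:**
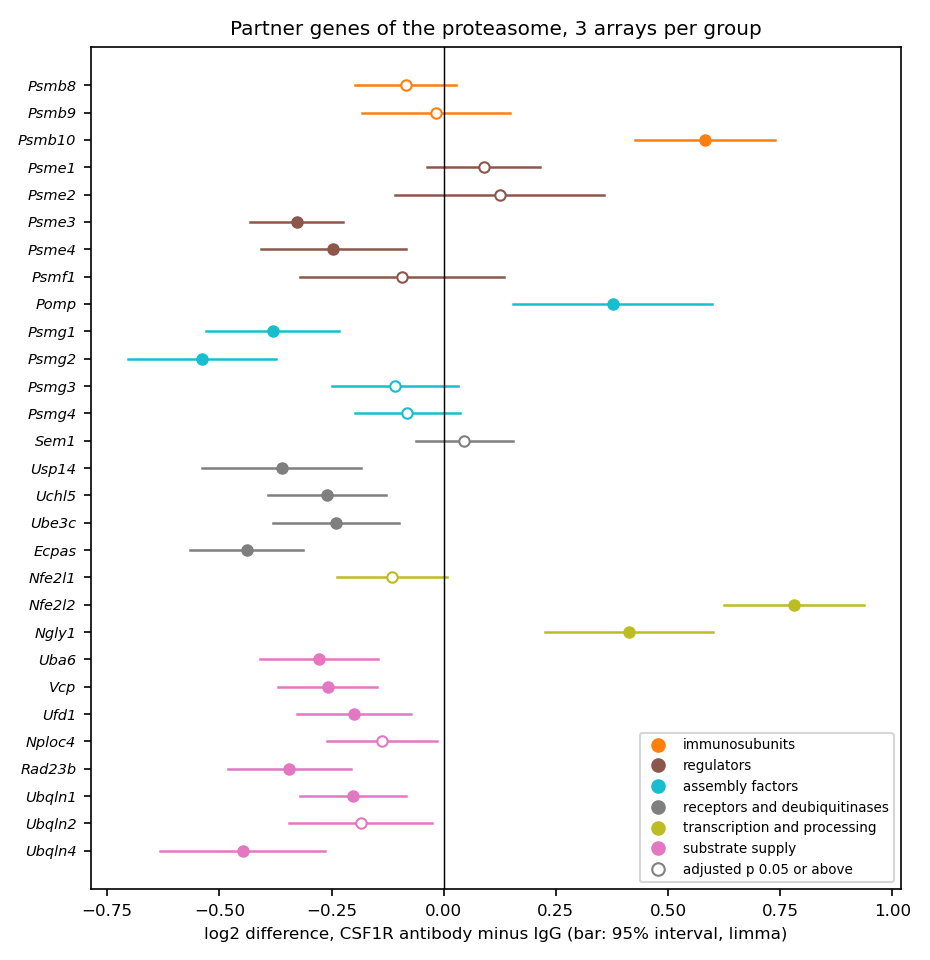
Log2 difference between CSF1R antibody and IgG arrays for 29 partner genes of the proteasome, with limma's 95% interval and the list as colour (3 arrays per group); filled points passed the test. Points for Nfe2l2, Psmb10, Ngly1 and Pomp lie to the right of 0, and 14 filled points lie to the left.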

How the data were processed

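Each of the 6 RNA samples was hybridised to a GeneChip Mouse Gene 2.0 ST array, and the authors deposited a linear intensity for each probe set. Per the submitters' processing notes RMA and limma were used, with neither version nor role given. RMA as usually run makes the distributions of all arrays alike, which can hide a shift of most genes. The deposited arrays were not fully alike on the log2 scale. Their medians over all probe sets were 4.91, 4.89 and 4.88 with antibody and 4.94, 4.95 and 4.93 with IgG. Genes with a group mean above 8 had a median difference of -0.09 as deposited and 0.02 with cyclic loess. The genome build used for the arrays is not given in the sources used here.

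Values were taken as log2. Of 41345 probe sets, 23521 had 1 gene symbol in the platform annotation, and for each of 22180 genes the probe set with the highest mean was used. The test was limma's lmFit and eBayes (version 3.58.1, under R 4.3.3; 4 residual degrees of freedom), with Benjamini-Hochberg adjustment over all genes at 0.05, after the fit was tested on simulated data. Differences between paired subunits used an exact permutation test over arrays. No filter on signal was set. The background guide, 4.92, is the level that 95% of 1396 receptor genes for odours and pheromones stay under, and was chosen with the data in view. Promoters came from RefSeq (GRCm38.p6), and figures from matplotlib 3.10.9.

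Members and lists were chosen with earlier results of these data known. The rule for printing values by array took the 6 largest changes that passed in each direction, the 3 standard catalytic subunits, and the largest and smallest change of each subcomplex. Psma8, Psmb11, Psmd12 and partner genes so printed were added with their values in view. No label ties a replicate to a mouse, and the error behind each p-value may therefore be technical. With 3 arrays per group, their number limits the precision. Alternatives were cyclic loess, centring, intensity trend, robust variances, signal filters, averaging the probe sets of a gene, a replicate block, other thresholds, Welch's statistic and leaving out each array.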

Additional observations from a re-analysis of the deposited data

How the results depend on the processing

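The count of 21 lower members was 11 with cyclic loess, and 0 when a change of at least 1.5-fold was also asked; it was 16 to 25 under the other settings of the fit, 14 at an adjusted p under 0.01, 24 under 0.1, 16 by Welch's statistic and 15 to 21 without single arrays. The count of higher members was 0 under each. Lower partner genes numbered 6 with cyclic loess and 10 to 12 without single arrays, and higher ones 3 to 5. The median over all members was -0.12 with cyclic loess, -0.18 with arrays centred on their medians, and -0.26 to -0.22 without single arrays. For the ATPases these values were -0.12, -0.19 and -0.26 to -0.22, for the non-ATPases -0.12, -0.19 and -0.28 to -0.21. For the beta ring they were -0.12, -0.17 and -0.25 to -0.19. The alpha ring median was -0.059 with cyclic loess, -0.27 over genes above the median signal, where dim members drop out, and -0.19 to -0.17 without single arrays. The cause of the shifts with scaling was not tested.

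Members that did not pass changed sign with cyclic loess: Psma1 (0.0476), Psma5 (0.006), Psmb6 (0.1077), Psmb11 (0.0164), Psmc4 (0.009), Psmd6 (0.063), Psmd8 (0.0303), Psmd9 (0.0547) and Psmd10 (0.0525). With arrays centred on their medians Psma5 (0.027), Psmb6 (0.0353), Psmb11 (0.039) and Psmd9 (0.0123) did so. Without single arrays Psma5 ran from -0.0282 to 0.0008, Psmb6 from -0.0326 to 0.0234, Psmb11 from -0.0492 to 0.0148, Psmd10 from -0.1076 to 0.0018, and Psmb9 minus Psmb6 from -0.0305 to 0.0289. Psmb8 minus Psmb5 ran from 0.08 to 0.16 and Psmb10 minus Psmb7 from 0.87 to 0.96. No member that passed changed sign under the settings tried.

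The replicate numbers are not shown to pair the arrays: correlations of deviations from group means were 0.03, -0.05 and 0.00 for arrays of the same number, and 2 of the 3 antibody arrays correlated best with an IgG array of another number. With the replicate block 16 members and 10 partner genes were lower, and 0 members and 4 partner genes higher.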
